A study of Mus musculus with 6 samples.

Results

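The genes described here are 10 members of the Notch signalling pathway, the receptors Notch1, Notch2, Notch3 and Notch4, the ligands Jag1, Jag2 and Dll1, and the target genes Hes1, Hey1 and Heyl. They were chosen by name, as 10 of the 25039 genes to which the RefSeq transcripts of the expression table could be assigned. Each of the 10 genes had 1 transcript in the table, so none had to be selected among several. RNA-Seq had been performed on 3 WT and 3 Anp32e null libraries of mouse embryonic fibroblasts (MEFs), primary cells grown from mouse embryos. The null cells come from Anp32e-/- embryos, which lack the chaperone that removes the histone variant H2A.Z from chromatin. Both groups were kept below the eighth passage in medium with 10% fetal bovine serum, and total RNA was made into strand-specific libraries. The sources used here do not say how many embryos contributed to each genotype.

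The values are levels over both genotypes together. The table gives for each transcript 1 mean over all 6 libraries of the normalized count, which is the read count divided by the size factor of the library. WT and Anp32e null MEFs were not compared here, because the columns that hold this contrast are results of the authors' own comparison and were not used. The mean is the authors' value and carries no error between replicates. A mean of 2190 normalized counts was listed for Anp32e itself, and as it spans both genotypes it does not check the labels.

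Notch proteins are single-pass receptors that bind ligands on the surface of a neighbouring cell. Ligand binding exposes the receptor to an ADAM protease and then to gamma-secretase, which releases the intracellular domain. This domain enters the nucleus, binds the DNA-binding protein RBPJ together with a Mastermind coactivator, and turns on repressors of the Hes and Hey families. Jag and Dll proteins are the ligands, and Notch signals are known to guide mesenchymal, vascular and skeletal differentiation.

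Because long transcripts collect more reads than short ones at the same abundance, levels of Notch pathway genes are compared per kilobase (kb) of exon. The 10 genes ranged on this scale from Hes1 at 2131 to Heyl at 0.585 mean normalized counts per kb, a ratio of 3640. Per kb of coding sequence this ratio was 1362. The order between them was Notch2, Notch1, Jag1, Hey1, Notch3, Jag2, Notch4 and Dll1. Among genes whose mean reached 10 normalized counts, the median gene stood at 340 per kb, with quartiles of 75.9 and 1109. Hes1 and Notch2 lay above this median and the other 8 genes below it. Among all 17537 genes with a read and a known length the median was 130.4 per kb, and Notch1 and Jag1 lay above it too. Of the 10 genes, 9 reached a mean of 10 normalized counts, as did 56.9% of all 25039 genes, and Heyl was the exception.

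**Figure D1:**
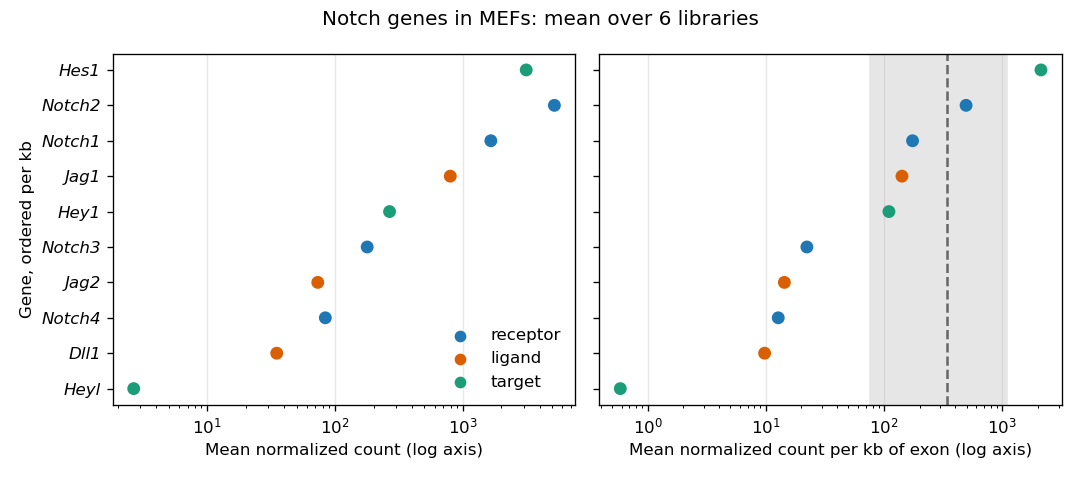
Mean normalized count over the 6 libraries for each of the 10 Notch genes, on a log axis (left), and the same mean per kb of exon, on a log axis (right), with genes ordered from the highest to the lowest per kb. The dashed line marks the median gene at 340 per kb and the grey band the quartiles. Hes1 lies above the band, Notch2, Notch1, Jag1 and Hey1 inside it, and the other 5 genes below it.

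The receptors Notch2 and Notch4 stand at the top and bottom of the receptor order, and the 250 bases before their RefSeq starts are shown here as context for these loci. The sequences are from RefSeq on GRCm38.p6, both genes lie on the plus strand, and capitals mark GC boxes, the letters GGGCGG or their complement CCGCCC, that Sp1-family factors are known to bind. Transcript positions given elsewhere are those of GENCODE on GRCm38, and the GENCODE start of Notch4 falls near the end of its window, 5′ of the RefSeq start.
Notch2, chr3:98013288-98013537: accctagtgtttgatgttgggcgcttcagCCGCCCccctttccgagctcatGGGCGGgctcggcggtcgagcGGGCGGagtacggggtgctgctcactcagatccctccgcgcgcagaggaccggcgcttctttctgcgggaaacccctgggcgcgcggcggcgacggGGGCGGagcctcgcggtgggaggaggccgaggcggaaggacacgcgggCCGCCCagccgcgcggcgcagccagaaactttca
Notch4, chr17:34564045-34564294: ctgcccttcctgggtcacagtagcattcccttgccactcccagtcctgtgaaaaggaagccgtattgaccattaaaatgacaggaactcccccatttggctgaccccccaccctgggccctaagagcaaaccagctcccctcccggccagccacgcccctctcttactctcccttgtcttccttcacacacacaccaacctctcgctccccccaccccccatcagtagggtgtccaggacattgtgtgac
The Notch2 window holds 5 GC boxes and 34 CpG dinucleotides and is 72.0% G or C. In the Notch4 window the letters of a GC box are absent, 4 CpG dinucleotides occur and 58.4% of bases are G or C. Among 32851 mouse promoter windows of the same length, the median was 52.4% G or C and 6 CpG dinucleotides, and 32.7% held a GC box.

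Windows were matched for 7 of the 10 genes, with 8 windows because Dll1 has 2 starts, and not for Hes1, Hey1 and Heyl. GC boxes were also found in the windows of Notch1 (5), Notch3 (4) and Jag2 (5), and not in those of Jag1 or either start of Dll1. By the GENCODE positions, the Jag2 window lies within the span of its transcript. The Jag1 window and the Dll1 window that starts at 15375824 lie partly within theirs. Jag2 had the most CpG dinucleotides of these windows, 54, with 87.2% G or C. The core letters bound by RBPJ, TGGGAA or TTCCCA on either strand, were in none of the 8 windows and in 21.6% of all windows. These matches describe the sequence only, since no measurement made at promoters was used here.

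Among the receptors, Notch2 was the most abundant at 495 mean normalized counts per kb, from a mean of 5197 over a transcript of 10500 exonic bases. It ranked above 58.1% of the 12901 genes that had a mean of at least 10 and a known length. Notch2 is broadly expressed in mesenchyme, and its transcript has 34 exons on chromosome 3 from 98013538 to 98150361 of GRCm38, plus strand. Notch1, the best studied receptor of the family, had a mean of 1654 normalized counts or 174 per kb, above 36.8% of genes. Its 34-exon transcript lies on chromosome 2 from 26457903 to 26503822, minus strand. Per kb, the level of Notch2 was 2.84 times that of Notch1.

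Notch3 and Notch4 were far lower. Notch3, a receptor best known from vascular smooth muscle and pericytes, had a mean of 178 normalized counts or 22.2 per kb, above 12.8% of genes. The gene is transcribed from the minus strand of chromosome 17, where the transcript spans 32120820 to 32166852 in 33 exons. Notch4, best known from endothelium, lies on the plus strand of the same chromosome from 34564268 to 34588503 in 30 exons and had a mean of 83.8 normalized counts. This is 12.7 per kb, above 8.33% of genes. Per kb, Notch2 exceeded Notch3 by 22.3 times and Notch4 by 38.9 times, whereas Notch3 exceeded Notch4 by 1.75 times. Of the summed level of the 4 receptors per kb, 70.3% was Notch2, 24.8% Notch1, 3.16% Notch3 and 1.81% Notch4.

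Jag1 dominated the 3 ligands. This Jagged-family ligand had a mean of 796 normalized counts or 142 per kb, above 33.3% of genes, from a 26-exon transcript on chromosome 2 from 137081456 to 137116644, minus strand. Its paralog Jag2 had a mean of 73.2 normalized counts or 14.3 per kb, above 9.32% of genes. The Jag2 transcript also has 26 exons and lies on chromosome 12 from 112907819 to 112929776, minus strand. Dll1, a Delta-family ligand with an established role in somite and muscle development, was the lowest of the 3 with a mean of 34.9 normalized counts or 9.75 per kb, above 6.59% of genes. Its 11 exons lie on chromosome 17 from 15367354 to 15375976, minus strand. Per kb, Jag1 exceeded Jag2 by 9.90 times and Dll1 by 14.5 times, and it made up 85.5% of the summed level of the 3 ligands. Jag1 itself stood below Notch2, whose level per kb was 3.49 times higher.

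The target genes were spread most widely. Hes1, a basic helix-loop-helix repressor and a direct Notch target that other signals also induce, had a mean of 3128 normalized counts or 2131 per kb, above 86.0% of genes. It lies on chromosome 16 from 30065340 to 30067796, plus strand, in 4 exons. Hey1, a related repressor, had a mean of 267 normalized counts or 110.0 per kb, above 29.7% of genes, from 5 exons on chromosome 3 between 8663359 and 8667256, minus strand. Heyl, the third repressor and a known target of Notch3 in vascular smooth muscle, had a mean of 2.66 normalized counts or 0.585 per kb. The Heyl transcript has 5 exons on chromosome 4 from 123233556 to 123249875, plus strand. Per kb, Hes1 was 19.4 times as high as Hey1, and Hey1 was 188 times as high as Heyl. Per kb of coding sequence these ratios were 12.4 and 109. Among all 17537 genes with a read and a known length, Heyl ranked above 11.1%.

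**Figure D2:**
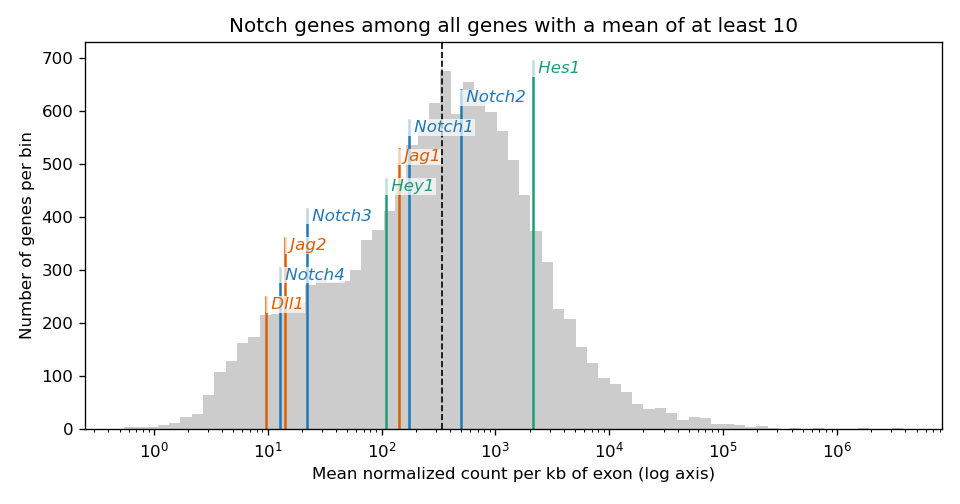
Histogram of the mean normalized count per kb of exon, on a log axis, for the 12901 genes with a mean of at least 10 and a known length (vertical axis, number of genes per bin). Coloured lines mark 9 of the Notch genes, receptors in blue, ligands in orange and targets in green, with line heights chosen only to separate the names, and the dashed line is the median gene at 340. Hes1 lies in the upper part of the distribution, and Notch3, Jag2, Notch4 and Dll1 lie in its lower tail.

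In bulk RNA, fewer cells of a type and less RNA per cell cannot be told apart, so a low level may be spread over the culture or come from a few cells. Markers of other cell types were therefore examined over the same libraries. For them the mean itself is given, so transcript length also bears on which markers reach 10. Over all 25039 genes, 56.9% reached a mean of 10 normalized counts, the share to read beside the marker counts. Of 10 fibroblast markers, 9 reached a mean of 10 normalized counts, with Vim the highest at 330695 and Lum, at 1.33, the lowest and the exception. All 7 smooth muscle and pericyte markers passed the same level, from Des at 59.6 to Acta2 at 415857 normalized counts. Acta2 is also expressed by cultured fibroblasts.

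Of 8 endothelial markers, 3 had a mean of at least 10, Kdr at 2958, Tek at 34.4 and Erg at 23.9 normalized counts. The other endothelial markers were Esam at 8.71, Pecam1 at 4.47, Cdh5 at 3.54 and Tie1 at 2.78 normalized counts, and Emcn, which had no reads. A mean of at least 10 was listed for 2 of 5 macrophage markers (Adgre1 0.178 to Cd68 257), 3 of 5 epithelial markers (Krt5 1.17 to Krt18 1106) and 2 of 5 neural and glial markers (Elavl3 2.43 to Tubb3 737). The part of such cells in the levels of Notch3, Notch4 and Heyl was not tested.

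Whole reads per library could be recovered for the least abundant members, since a mean of 6 scaled whole counts has a limited set of possible values. The 6 size factors read from the smallest means ran from 0.909 to 1.13. No label ties a recovered library to a genotype, so libraries are named by their size factor, listed here from the smallest to the largest, and no groups were formed. The total read count of each library is unknown. Intervals below are exact 95% Poisson intervals and cover counting error only. The highest and lowest libraries were picked from the same values, so whether their intervals overlap is a description and not a test.

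Notch4 had 498 reads in all (interval 455 to 544). Its normalized counts were 112, 119.7, 63.8, 83.7, 59.0 and 64.6 in the libraries with size factors of 0.909, 0.936, 0.987, 1.03, 1.05 and 1.13. The highest value was 2.03 times the lowest, and the counting interval of the highest library (98.6 to 144) did not overlap that of the lowest (45.2 to 75.6).

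For Jag2, 435 reads were recovered (interval 395 to 478). In the same library order its normalized counts were 110.0, 106, 33.4, 75.0, 47.6 and 67.2, a spread of 3.29 times. The libraries that were highest for Notch4 were highest for Jag2 as well. The interval of the highest library (89.5 to 134) again lay apart from that of the lowest (23.0 to 47.0).

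Dll1 was covered by 212 reads (interval 184 to 243). Its normalized counts were 38.5, 22.4, 48.6, 22.4, 34.2 and 43.3 in this order, with the highest 2.17 times the lowest. The library with a size factor of 0.936, highest for Notch4, was among the lowest for Dll1. For this gene the interval of the highest library (35.9 to 64.5) cleared that of the lowest (14.2 to 33.6) narrowly.

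Heyl was seen in 16 reads (interval 9.15 to 26.0), which fell in 5 of the 6 libraries. Its normalized counts were 0, 6.41, 3.04, 0.973, 2.85 and 2.65, or 0, 6, 3, 1, 3 and 3 reads. The library without a read allowed up to 4.06 normalized counts at the upper end of its interval, so these libraries could not be distinguished by Heyl at this depth.

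**Figure D3:**
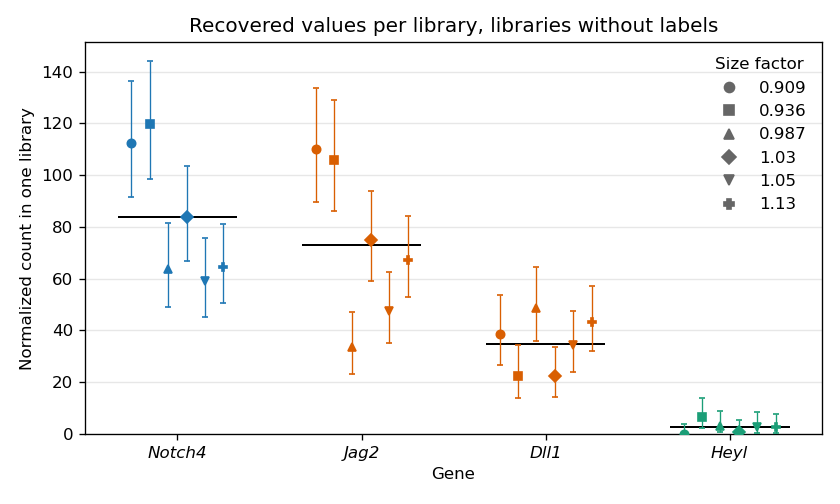
Normalized count in each of the 6 libraries (vertical axis) for the 4 Notch genes whose whole reads were recovered, with marker shapes for the size factor of the library, vertical bars for exact 95% Poisson intervals and horizontal lines for the mean. Libraries carry no genotype label. Notch4 and Jag2 were highest in the libraries with size factors of 0.909 and 0.936, where Dll1 read 38.5 and 22.4.

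These library values bear on the lower end of the order. Per kb, the libraries ranged from 6.55 to 21.5 normalized counts for Jag2, from 8.95 to 18.2 for Notch4 and from 6.25 to 13.6 for Dll1, so that the ranges of these neighbours overlapped. The range of Heyl, 0 to 1.41 per kb, lay below all 3. For the 6 more abundant members the means gave no value per library, and whether neighbours such as Notch1 and Jag1, which differed 1.23 times per kb, are separated beyond the spread of libraries cannot be stated. Their depth was larger, with the mean of Notch3 requiring between 972 and 1209 reads, that of Hey1 1454 to 1808, that of Jag1 4341 to 5400 and that of Notch1 9021 to 11222. The corresponding ranges were 17057 to 21220 reads for Hes1 and 28344 to 35262 for Notch2.

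Overlapping genes limit some of these values. Exons of Notch1 share 1068 bases, 11.3% of its exonic length, with the antisense gene 0610009E02Rik, which had a mean of 134 normalized counts. Dll1 shares 624 bases, or 17.4%, with antisense A930024N18Rik, and Notch3 shares 488 bases, or 6.09%, with antisense Gm17276. On the same strand, Notch2 shares 541 bases, or 5.15%, with Gm42820. Notch1 also shares 414 bases, or 4.36%, with antisense Gm13568. The libraries kept strand, but the study's methods name default settings for counting, and featureCounts ignores strand by default. Reads in these stretches may therefore come from either gene, and whether they were counted for a member or left out is not known here. Of the overlapping genes named, only 0610009E02Rik was found by name among the genes with a listed mean. A930024N18Rik, Gm17276, Gm42820 and Gm13568 were not, and may not have been counted as genes of their own.

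The rest of the pathway was examined in a list of 63 genes in 9 roles that includes the 10 members. All 63 had reads, beside 19271 of all 25039 genes. The mean of 56 reached 10 normalized counts, beside 56.9% of all genes, the share to read beside the counts by role below. Over the 54 genes of the list with a mean of at least 10 and a known length the median was 294 per kb, beside 340 for the 12901 genes chosen the same way. Over all 61 with a known length it was 240 per kb, beside 130.4 for the 17537 genes with a read, so the side on which the list falls depends on the genes ranked. Of the 61, 26 lay above 340 and 38 above 130.4 per kb. The 7 genes under a mean of 10 were the ligands Dll3 (1.43) and Dll4 (0.464), the Fringe glycosyltransferase Mfng (0.487), the Deltex-family gene Dtx1 (0.910), and the targets Hes5 (2.14), Hes7 (7.19) and Heyl.

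Among the genes that build and cut the receptor, Furin, the convertase that cleaves Notch on its way to the surface, stood at 1323 mean normalized counts per kb. Poglut1, which adds glucose to the receptor, reached 756 and Mfng 0.261 per kb. Of the 9 cleavage genes all had a mean of at least 10, with the gamma-secretase subunit gene Ncstn at 1333 per kb and the subunit gene Aph1c lowest at 5.31. In ligand endocytosis, the ubiquitin ligase gene Mib1 stood at 1676 per kb, above Neurl1b at 53.4 and Neurl1a at 35.3.

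Among ligands, the noncanonical family member Dlk2 was highest at 1161 per kb, above Jag1, and Dll4 lowest at 0.124 per kb with 3 reads in 2 libraries. All 7 nuclear complex genes had a mean of at least 10, with Snw1 at 2991, the acetyltransferase gene Kat2a at 981 and the Mastermind gene Maml3 at 8.92 per kb. Rbpj, which the naming rule did not select, stood at 613 per kb. The 10 corepressor genes ranged from Cir1 at 40.7 to the histone deacetylase genes Hdac1 at 1967 and Hdac2 at 3316 per kb. In receptor turnover, Numbl was highest at 950 per kb, Dtx3 followed at 753, and Dtx1 was lowest at 0.226.

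**Figure D4:**
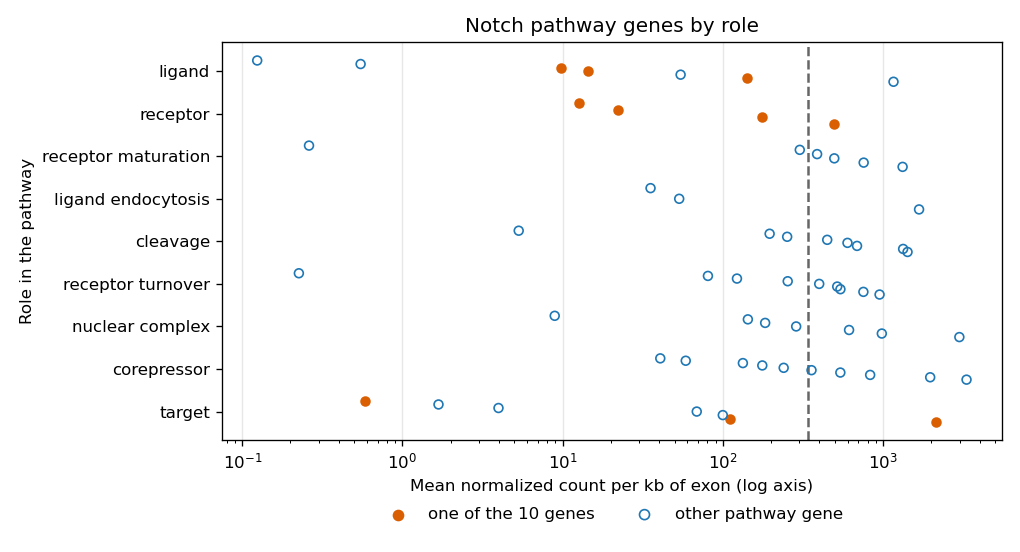
Mean normalized count per kb of exon, on a log axis, for the 61 pathway genes with a known length, grouped by role, with filled orange points for the 10 Notch genes and open blue points for the others. Vertical offsets only separate points, and the dashed line is the median gene at 340 per kb. In the receptor and ligand rows 1 gene each lies to the right of the line, Notch2 and Dlk2, and in the target row Hes1.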

How the data were processed

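RNA-Seq of 3 WT and 3 Anp32e null MEF libraries was used. Per the labels and the study's methods, reads were aligned to mm10 with RNA-STAR 2.7.3a, counted on RefSeq transcripts with featureCounts and analysed with DESeq2 1.26.0, with default settings. By default featureCounts ignores strand, and its version is not given in the sources used here. The signal column deposited by the authors is the mean over 6 libraries of counts divided by size factors. The other 5 value columns hold their comparison of the genotypes (log2 fold change, standard error, Wald statistic, p-value and adjusted p-value) and were not used, so no test was made. Of 42361 transcripts, 163 had no gene in RefSeq and 83.4% had an exonic length in GENCODE vM21 (GRCm38). The transcript of highest mean stood for its gene. All 10 members and 67.4% of all genes had 1 transcript. For a gene with several, such as Rbpj with 5, this level may leave out reads of the other transcripts. How reads shared by transcripts of 1 gene were counted is not known here. Levels of such genes may thus be too low, and percentiles of the members, with 1 transcript each, too high. The percentiles and the levels of the wider list were not adjusted for this.

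Steps of 1 read in the smallest means (0.147 to 0.183) gave the size factors, and all 4997 transcripts with a mean under 3 matched whole reads within 2e-13. Reads of genes with a mean up to 100 were solved as whole numbers within 1e-13, with 1 solution each. Tested on simulated reads, the true values were among the solutions in 91 of 92 cases over all means, and in 23 of 24 at simulated means of at least 70, where the solution was the only one in 20. Jag2 and Notch4 have means in this upper range.

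The 10 genes and all lists were chosen with earlier results of these data known. The naming rule took, beside the members, the 2 highest and the lowest gene per role, genes with a mean under 10, and the highest and lowest marker per list. All endothelial markers and Rbpj were named after their values were seen. A gene that the rule selects is not reported here. Alternatives were other transcripts, coding length, other minimum means, other genes ranked and order by the mean. Python 3.11.15, numpy 2.4.6, pandas 2.3.3, scipy 1.17.1 and matplotlib 3.10.9 were used.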

Additional observations from a re-analysis of the deposited data

How the results depend on the processing

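The number of the 10 genes above the median gene per kb was 2, and it became 4 when all genes with a read were ranked and 1 with coding length in place of exonic length. In the order per kb, 6 of the 10 genes held their place when ordered by the mean itself, where Notch2 passes Hes1 and Notch4 passes Jag2. With coding length, an order added after seeing the data, 5 held their place, Hey1 moving above Notch1 and Jag1, and Dll1 above Notch4. Coding length, the shorter length for each gene, raised the level per kb of all 10 genes by the ratio of the annotated lengths. Hey1 moved from 110.0 to 297, Heyl from 0.585 to 2.72 and Hes1 from 2131 to 3697. Ranking all genes with a read moved 9 of 10 percentiles by more than 5 points, and leaving out chromosomes X and Y moved none of the 10 by more than 5. The other transcript choices left all 10 levels as they were, since each gene has 1 transcript, and minimum means of 1 and 50 kept the counts of genes above the minimum within 1.5 times. Samples could not be paired by replicate, because the mean carries no replicate numbers, and no test was made. Jag2, Notch4, Dll1 and Heyl were recovered in the same libraries, and their differences within libraries were not tested. Leaving out each recovered library in turn, added after seeing the data, gave 12.9 to 15.9 per kb for Jag2, 11.6 to 13.5 for Notch4, 8.99 to 10.5 for Dll1 and 0.420 to 0.702 for Heyl, in that order with any of the 6 left out. It could not be run for the other 6 genes. These means share most of their libraries, so the order need not hold in each library alone. In the library with a size factor of 0.987, Dll1 was at its highest, 13.6 per kb, and Jag2 at its lowest, 6.55 per kb. Levels per kb assume that the counted RefSeq transcript has the length of its GENCODE match. The depth of the libraries is unknown, and counting error relative to the level is smallest for Notch2 and largest for Heyl.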

Other observations

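In the recovered values, whose libraries carry no labels, Jag2 and Notch4 shared their pair of highest libraries, those with size factors of 0.909 and 0.936 (110.0 and 106 normalized counts for Jag2, 112 and 119.7 for Notch4). The other 4 libraries, with size factors of 0.987, 1.03, 1.05 and 1.13, held 33.4, 75.0, 47.6 and 67.2 for Jag2 and 63.8, 83.7, 59.0 and 64.6 for Notch4. Dll1, in the library order of rising size factor, had 38.5, 22.4, 48.6, 22.4, 34.2 and 43.3 normalized counts and another order of libraries. Outside the 10 genes, Aph1c was recovered at 167 reads and Maml3 at 450 reads. Aph1c ranged from 12.4 normalized counts in the library with a size factor of 1.05 to 45.8 in that of 1.03. Maml3 was lowest, at 45.1, in the library with a size factor of 0.909 and highest, at 91.1, in that of 1.13. The pair shared by Jag2 and Notch4 was read from the recovered values and was not tested.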
